A study of Mus musculus with 24 samples.

Results

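Sham kidneys of FVB mice, an inbred strain, gave the fractions compared here: endothelial isolates, taken with microbeads against CD31, and proximal tubules, collected by microdissection, both from enzymatically digested kidney. The members are the sham libraries of both isolations, 11 of the 23 samples of the series, chosen by their labels. They are 2 female and 3 male endothelial isolates and 3 female and 3 male tubule samples, and the labels give each of them as uninjured. No transgene or drug is named, and age is not given in the labels. According to the labels 3 mice of each sex were used in an experimental group, but no label ties a sample to a mouse. Titles carry numbers that the isolations share. The p-values measure the spread between samples of a group, estimated over all 23 samples of the series, including the injured ones labeled IRI. CD31 beads hold what carries CD31 on its surface and whatever stays attached or trapped with it, so the question was which kidney cell types the bead fraction held, set against tubules of the same treatment.

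CD31 is the protein of Pecam1, an adhesion molecule at the junctions between endothelial cells, and it is also carried by platelets and some leukocytes. Kidney endothelium is not uniform. Fenestrated capillaries form the glomerular tuft beside podocytes and mesangial cells, peritubular capillaries surround the tubules, and vasa recta run beside the loops of Henle. Proximal tubules reclaim most filtered solutes and make up much of the cortex, whereas the thick ascending limb, the source of uromodulin, reabsorbs sodium chloride without water.

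The isolates held 37237573 to 54906972 estimated reads and the tubules 32592517 to 43213099, with 8.95 to 11.8% and 7.06 to 13.6% of reads in mitochondrial genes. Male tubule sample 3 stood apart in composition, with 86.8% of its reads in protein-coding genes against 93.1% in the median tubule sample. Male isolates 1 and 2 correlated with some tubule samples at up to 0.9687 across genes (log2 CPM), beside a highest correlation among isolates of 0.9775. Expression is given as TPM, abundance per transcript length scaled within a library. Differences are log2 changes ± SE of counts, with females and males weighted equally (edgeR quasi-likelihood test), called at a Benjamini-Hochberg adjusted p under 0.05. Of 21206 genes tested, 2208 (10.4%) were higher and 395 (1.86%) lower in the isolates. In 1267 genes (5.97%) all 5 isolates lay above all 6 tubule samples, and in 330 (1.56%) all lay below, on the CPM scale. Without male isolates 1 and 2, a setting chosen after the data were seen, 2422 genes were higher and 1238 lower. Without female isolate 1, 1230 were higher and 158 lower, and without male isolate 3, 1481 and 219. The number lower also moved by over 1.5 times without female tubule sample 1 (253), female isolate 2 (259) or male tubule sample 2 (243).

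The endothelial markers were higher in the isolates, and the 2 tubule markers did not pass the test between the isolations. Pecam1 (chromosome 11, 106654217 to 106750628) had 54.7 and 20.4 TPM in the female isolates and 12.6, 13.1 and 48.1 TPM in the male isolates. It had 4.36 to 8.57 TPM in the tubules, median 5.71. All 5 isolates lay above every tubule sample, with female isolate 1 and male isolate 3 well above the other 3 (2.07 ± 0.32, adjusted p = 0.00029). Cdh5, the VE-cadherin of endothelial junctions (chromosome 8, 104101625 to 104144511), had 22.8 and 8.45 TPM in the female isolates and 3.49, 4.50 and 21.3 TPM in the male isolates. It had 0.968 to 1.97 TPM in the tubules, median 1.58. The groups did not overlap, and the order of the isolates was nearly that of Pecam1 (2.80 ± 0.47, adjusted p = 0.00061). Kdr, VEGF receptor 2 (chromosome 5, 75932827 to 75978458), had 44.2 and 14.5 TPM in the female isolates and 6.58, 8.38 and 38.2 TPM in the male isolates. It had 1.30 to 3.27 TPM in the tubules, median 1.94. This was again a difference without overlap (3.12 ± 0.46, adjusted p = 0.00021). Slc34a1, the sodium-phosphate cotransporter of proximal tubule (chromosome 13, 55398187 to 55415592), had 1448 and 1333 TPM in the female isolates and 1075, 1172 and 897 TPM in the male isolates. It had 1126 to 1626 TPM in the tubules, median 1419. The groups overlapped and the difference did not pass (-0.41 ± 0.20, adjusted p = 0.2), although it was called lower (-0.73 ± 0.22, adjusted p = 0.033) without male isolates 1 and 2. Lrp2, the endocytic receptor megalin (chromosome 2, 69424340 to 69586065), had 128 and 157 TPM in the female isolates and 45.9, 80.0 and 57.3 TPM in the male isolates. It had 75.8 to 132 TPM in the tubules, median 90.8. Female isolates lay at the upper end and male isolates 1 and 3 below every tubule sample (-0.28 ± 0.25, adjusted p = 0.55). Among 21819 nuclear protein-coding genes ordered by TPM within a library, Pecam1 ranked from 1541 to 4273 in the isolates, and Slc34a1 from 17 to 35. In bulk samples, fewer cells of a type and less RNA per cell cannot be told apart.

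**Figure D1:**
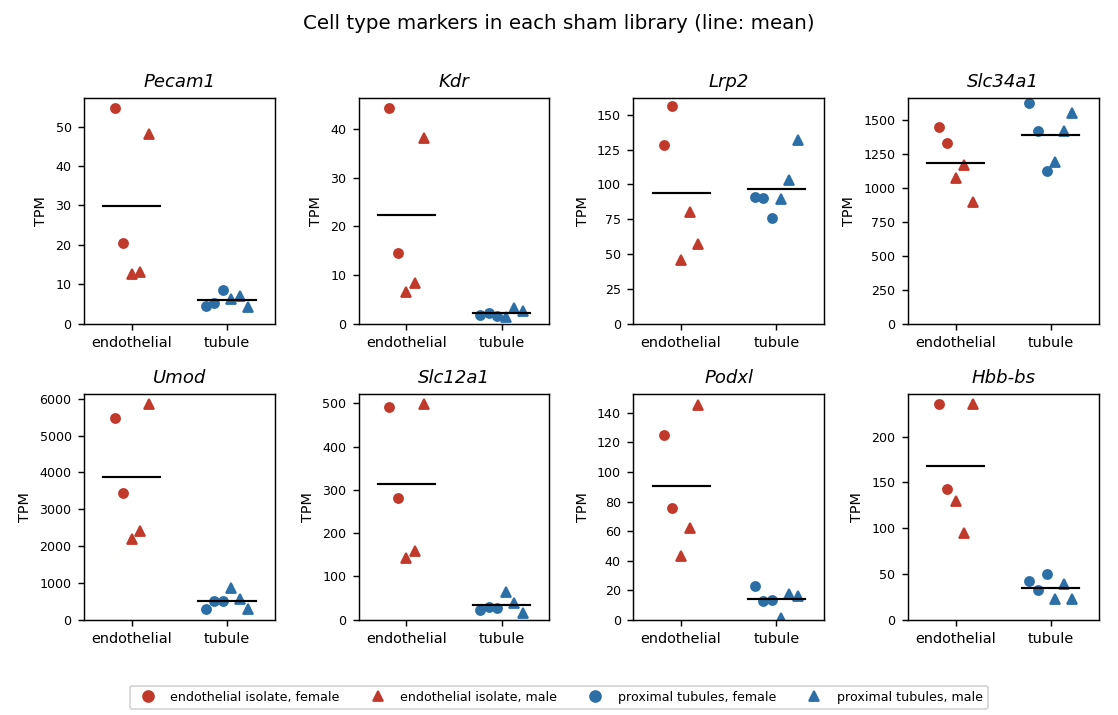
Level in TPM (vertical axes, from 0) of 8 cell type markers in each sham library, with circles for females, triangles for males and a line at the mean of each isolation. Pecam1 and Kdr are higher in the isolates, Lrp2 and Slc34a1 overlap, and Umod, Slc12a1, Podxl and Hbb-bs are higher in all 5 isolates than in any tubule sample.

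The promoters of 3 genes, shown as examples of the cell types whose transcripts the isolates held, come from RefSeq on GRCm38.p6, each with the 250 bases before the start annotated by RefSeq, on the gene's strand. All 3 of these starts lie inside the gene's span in GENCODE. The last bases of the Emcn and Umod stretches lie inside it too, as does the whole Slc34a1 stretch. The first bases after the RefSeq start were found in 0 annotated transcripts of Slc34a1, against 1 each for Emcn and Umod. The 3 stretches are thus upstream of the RefSeq start only. They are those of Emcn, encoding the endothelial sialoglycoprotein endomucin (chr3:137340828-137341077, plus strand), Umod, encoding uromodulin (chr7:119479263-119479512, minus strand), and Slc34a1 (chr13:55399398-55399647, plus strand). Capitals mark AGGAAG, a core of ETS factor sites, or GTTAAT, a homeodomain half-site, on either strand; the marked matches do not overlap.
Emcn: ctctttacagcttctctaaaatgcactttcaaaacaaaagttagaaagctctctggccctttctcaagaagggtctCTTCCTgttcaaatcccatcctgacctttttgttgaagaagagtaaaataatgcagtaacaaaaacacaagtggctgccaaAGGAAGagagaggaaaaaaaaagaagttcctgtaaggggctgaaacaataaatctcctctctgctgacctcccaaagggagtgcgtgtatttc
Umod: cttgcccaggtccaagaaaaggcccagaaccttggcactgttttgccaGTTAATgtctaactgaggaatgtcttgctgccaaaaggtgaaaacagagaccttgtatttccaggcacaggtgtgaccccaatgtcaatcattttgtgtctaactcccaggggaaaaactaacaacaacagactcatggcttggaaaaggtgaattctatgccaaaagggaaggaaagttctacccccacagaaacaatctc
Slc34a1: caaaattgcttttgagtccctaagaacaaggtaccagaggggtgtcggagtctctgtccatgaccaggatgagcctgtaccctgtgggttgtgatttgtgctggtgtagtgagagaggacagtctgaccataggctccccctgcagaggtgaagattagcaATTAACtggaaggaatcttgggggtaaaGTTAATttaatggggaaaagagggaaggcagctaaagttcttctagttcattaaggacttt
The Emcn promoter held 2 matches of the ETS core and 0 of the homeodomain half-site, Umod 0 and 1, and Slc34a1 0 and 2. Of all 32851 promoters of that length, outside 1 chromosome not used here, 29.5% held the ETS core and 6.43% the homeodomain half-site. The ETS core was found in 6 of 11 pan-endothelial promoters in the table, 3 of 8 of the thick ascending limb and 4 of 14 of early proximal tubule. The homeodomain half-site was found in 1, 2 and 5 of them. Promoters of Pecam1 and Cdh5 were not in the set used here, so they were not searched. The matches are a description of these letters.

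Endothelial genes as a class were higher in the isolates. Of the 18 pan-endothelial markers, all tested, 17 were higher and 0 lower, with a median log2 change of 2.55 against 0.00 over all genes, and 14 did not overlap. Their summed level was 735.0 and 291.5 TPM in the female isolates, 163.0, 177.6 and 690.8 TPM in the male isolates, and 35.8 to 109 TPM in the tubules, median 64.6. The lowest isolate was thus 2.52 times and the highest 11.4 times the tubule median. Emcn had 107 and 32.0 TPM in the female isolates and 27.4, 24.7 and 102 TPM in the male isolates. It had 4.56 to 10.6 TPM in the tubules, median 5.41 (2.89 ± 0.45, adjusted p = 0.00031). Eng, the TGF-beta coreceptor endoglin, was higher by 2.91 ± 0.37 (adjusted p = 8e-05), with 11.6 to 65.5 TPM in the isolates and 2.07 to 3.99 TPM in the tubules. Egfl7, a secreted factor of endothelial cells, was higher by 2.17 ± 0.33 (adjusted p = 0.00028), and the junction protein gene Esam by 2.55 ± 0.42 (adjusted p = 0.0005). Vwf, von Willebrand factor of larger vessels, was the member that did not pass; it had 0.43 and 1.06 TPM in the female isolates and 0.238, 0.189 and 1.02 TPM in the male isolates and 0.0174 to 1.58 TPM in the tubules (1.02 ± 0.87, adjusted p = 0.53).

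Glomerular endothelium gave the largest list median of the endothelial lists at more than trace level. All 7 of its markers were higher (median 3.65), 6 without overlap, and summed to 75.2 to 289 TPM in the isolates against 4.50 to 21.4 TPM in the tubules. All 7 were called in every alternative, including each fit without 1 library. Plat, tissue plasminogen activator, had 204 and 69.9 TPM in the female isolates and 66.4, 56.4 and 162 TPM in the male isolates. It had 1.02 to 14.6 TPM in the tubules, median 5.83 (3.89 ± 0.85, adjusted p = 0.0044). Ehd3, a membrane-trafficking protein of glomerular endothelium, had 56.0 and 14.5 TPM in the female isolates and 10.2, 9.57 and 50.3 TPM in the male isolates. It had 0.702 to 3.64 TPM in the tubules, median 1.82 (3.50 ± 0.56, adjusted p = 0.00043). Every isolate was above every tubule sample for both genes. Sost, best known as sclerostin, and the transcription factor genes Gata5 and Tbx3 were lower in level, with at most 4.09, 2.56 and 9.45 TPM in an isolate, and were also higher (5.14 ± 0.90, 4.78 ± 1.03 and 3.47 ± 0.54).

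Peritubular capillary genes gave fewer calls, beside 10.4% of all genes called higher. Of 5 tested, 1 was higher and 4 did not pass (median 0.86), and their sum ran from 6.79 to 95.7 TPM in the isolates and from 12.9 to 27.3 TPM in the tubules. Plvap, the diaphragm protein of fenestrated capillaries, had 31.6 and 15.4 TPM in the female isolates and 2.73, 3.45 and 43.5 TPM in the male isolates. It had 4.28 to 13.6 TPM in the tubules, median 9.23. Male isolates 1 and 2 lay below every tubule sample, while both female isolates and male isolate 3 lay above (0.84 ± 0.51, adjusted p = 0.34). Igfbp3, an insulin-like growth factor binding protein, showed the same split, with 25.4 and 9.98 TPM in the female isolates and 1.41, 2.54 and 35.5 TPM in the male isolates against 4.64 to 9.75 TPM in the tubules, median 6.21 (0.86 ± 0.64, adjusted p = 0.45). Esm1, a secreted proteoglycan of endothelium, was at 0.231 and 0.524 TPM in male isolates 1 and 2 and at 3.13 to 8.59 TPM in the other 3, with 1.84 to 3.56 TPM in the tubules, median 2.76 (-0.05 ± 0.53, adjusted p = 0.99). Its direction turned to 0.59 without those 2 male isolates, where Plvap was called higher (1.43 ± 0.38, adjusted p = 0.014). Without male isolate 3, Plvap went to -0.26, Igfbp3 to -0.39, and 1 member was called lower. Npr3, a natriuretic peptide clearance receptor, was the member called higher (1.59 ± 0.40, adjusted p = 0.013), and it was lost without female isolate 1 or male isolate 3. The difference between the glomerular and the peritubular list was not tested.

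**Figure D2:**
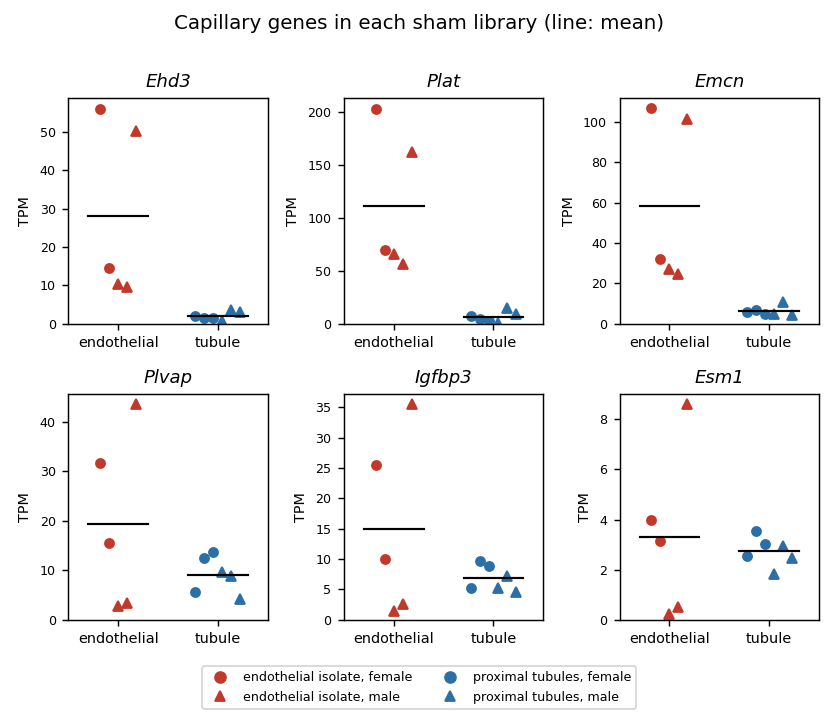
Level in TPM (vertical axes, from 0) of 3 genes higher in the isolates, Ehd3, Plat and Emcn, in the upper row and 3 peritubular capillary genes, Plvap, Igfbp3 and Esm1, in the lower row, for each sham library (circles female, triangles male, line at the mean). In the lower row male isolates 1 and 2 lie below all 6 tubule samples.

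Most arterial and some venous markers were higher too. Of 8 arterial markers 7 were higher (median 2.70). Their sum was 141.9 and 90.4 TPM in the female isolates and 66.48, 75.42 and 125.1 TPM in the male isolates. It was 55.95 to 73.15 TPM in the tubules. Sox17, an arterial transcription factor, had 23.9 and 7.46 TPM in the female isolates and 4.73, 5.58 and 22.7 TPM in the male isolates and 0.296 to 1.48 TPM in the tubules, median 1.07 (3.51 ± 0.48, adjusted p = 0.00012). Gja5, connexin 40, was higher by 3.30 ± 0.81 (adjusted p = 0.01). Cxcl12, the chemokine ligand of CXCR4, was the exception, with 39.0 to 60.6 TPM in the isolates and 49.1 to 68.1 TPM in the tubules (-0.34 ± 0.20, adjusted p = 0.31). Of 5 vasa recta and venous markers tested of 6, 3 were higher. Slc14a1, the urea transporter of descending vasa recta, had 4.13 and 1.91 TPM in the female isolates and 0.172, 0.242 and 4.03 TPM in the male isolates and 0.0397 to 0.262 TPM in the tubules (3.63 ± 0.73, adjusted p = 0.0024), with male isolates 1 and 2 inside the tubule range. Ephb4, a venous ephrin receptor, had 14.7 and 9.63 TPM in the female isolates and 6.75, 6.60 and 15.9 TPM in the male isolates and 3.52 to 5.32 TPM in the tubules, median 3.84 (1.11 ± 0.16, adjusted p = 0.00019). Lymphatic markers were near the limit of detection: 4 of 6 were higher, but the 6 together summed to at most 7.85 TPM in an isolate and 0.814 TPM in a tubule sample.

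Signaling genes of endothelium gave many calls, nearly all upward. All 7 VEGF and angiopoietin receptors were higher (median 2.36), among them Nrp1, a VEGF coreceptor (2.35 ± 0.37, adjusted p = 0.00038), and Tek, the angiopoietin receptor TIE2 (2.28 ± 0.43, adjusted p = 0.0013). Of 8 ligands 4 were higher, including Vegfc (1.38 ± 0.25) and Angpt2 (3.44 ± 0.62). Vegfa, made by podocytes and tubules, did not pass and had 29.3 to 62.3 TPM in the isolates and 28.1 to 48.4 TPM in the tubules. In the Notch list 8 of 12 were higher and 0 lower, against 5 and 1 with effective length offsets, including the arterial ligand Dll4 (2.13 ± 0.39, adjusted p = 0.0012) and Jag2 (3.09 ± 0.47, adjusted p = 0.00026). Of 14 endothelial transcription factors 11 were higher, with Ets1 at 3.10 ± 0.49 (adjusted p = 0.00038) and Erg at 2.37 ± 0.46 (adjusted p = 0.0017). The coagulation and vascular tone list had 7 higher and 1 lower of 14, the lower call being lost without any of female tubule sample 3, female isolates 1 and 2, male tubule samples 1, 2 and 3, and male isolates 1 and 3. The leukocyte adhesion list had 4 higher of 8, including Icam2 (2.84 ± 0.41) and Cd34 (2.33 ± 0.36).

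The BMP and ALK1 list had calls in both directions. Of 12 tested, 4 were higher and 3 lower, and 1 of the 3, Id1, was lower without overlap. Acvrl1, the ALK1 receptor of endothelium, had 40.9 and 11.2 TPM in the female isolates and 11.7, 7.76 and 49.9 TPM in the male isolates. It had 1 to 4.50 TPM in the tubules, median 1.77 (3.13 ± 0.37, adjusted p = 5.1e-05). Id1, a target gene of BMP receptors, had 36.1 and 21.4 TPM in the female isolates and 16.7, 16.1 and 29.1 TPM in the male isolates. It had 39.9 to 124 TPM in the tubules, median 108. Every isolate lay below every tubule sample, with male isolates 1 and 2 the lowest (-2.19 ± 0.26, adjusted p = 5.1e-05). Id1 was called lower in every alternative. Smad6, an inhibitory SMAD that BMP receptors also induce, was higher (1.91 ± 0.28, adjusted p = 0.00022). Id2 and Id3 were the other members called lower, and 1 member in place of 3 was called without any of female tubule samples 1, 2 and 3, female isolate 1, male tubule sample 1 or 2, or male isolate 2.

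Transcripts of the other glomerular cells came with the glomerular endothelium. Of 10 podocyte markers 7 were higher (median 2.36), and 8 lay above every tubule sample. Their sum was 318.1 and 194.0 TPM in the female isolates, 173.9, 188.2 and 362.7 TPM in the male isolates, and 4.66 to 62.5 TPM in the tubules, median 44.6. Podxl, the podocalyxin of podocytes that endothelium also makes, had 125 and 75.6 TPM in the female isolates and 43.4, 62.0 and 146 TPM in the male isolates. It had 1.34 to 23.1 TPM in the tubules, median 15.1 (2.55 ± 0.52, adjusted p = 0.0028). Synpo, an actin-binding protein of foot processes, was higher by 2.39 ± 0.55 (adjusted p = 0.0062). The podocyte count fell to 3 without female isolate 1, to 4 without female tubule sample 1 or 3, male tubule sample 3 or male isolate 3, and to 5 without female tubule sample 2.

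Mesangial and mural genes were mixed, beside 10.4% of all genes called higher and 1.86% lower. Of 8 mesangial, pericyte and renin cell markers 4 were higher, and the same number was called without each library in turn. Pdgfrb, the PDGF receptor of mural cells, had 9.29 and 3.22 TPM in the female isolates and 2.12, 2.06 and 8.22 TPM in the male isolates. It had 0.0448 to 0.968 TPM in the tubules (3.38 ± 0.64, adjusted p = 0.0014). Itga8, the integrin of mesangial cells, had 29.8 and 11.8 TPM in the female isolates and 5.00, 6.46 and 34.1 TPM in the male isolates. It had 0.0891 to 2.68 TPM in the tubules (3.91 ± 0.81, adjusted p = 0.003), again without overlap. Ren1, renin of juxtaglomerular cells, did not pass. It had 28.0 and 3.31 TPM in the female isolates and 7.96, 28.0 and 119 TPM in the male isolates, and among tubule samples female 3 and male 3 had 190.0 and 108 TPM while the other 4 had 4.94 to 18.1 TPM. Of 5 smooth muscle markers only Des, which mesangial cells also express, was higher (3.81 ± 0.61, adjusted p = 0.00039). Tagln, of contractile smooth muscle, had 5.23 to 18.9 TPM in the isolates, 35.3 and 44.3 TPM in female tubule sample 3 and male tubule sample 2, and 1.41 to 4.03 TPM in the other tubule samples. Fibroblast markers were scarce, summing to at most 3.66 TPM in an isolate, with 2 of 6 tested higher, Pdgfra (3.84 ± 0.67) and Col1a2 (1.75 ± 0.49), and Dcn lower (-1.74 ± 0.36); without female tubule sample 1, female isolate 1 or male isolate 3 the count higher was 1.

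Blood was present at low to moderate level. As a background, 10.4% of all genes were called higher. Erythroid genes summed to 162 to 472 TPM in the isolates and 42.7 to 93.1 TPM in the tubules, and 3 of 5 tested were higher. Hbb-bs, a beta globin, had 236 and 143 TPM in the female isolates and 129.6, 94.6 and 236 TPM in the male isolates. It had 22.4 to 50.4 TPM in the tubules, median 35.6. All 5 isolates lay above every tubule sample (1.98 ± 0.55, adjusted p = 0.021), while 0 erythroid genes were called without female isolate 1 and 1 without male isolate 3. Globin genes have near-identical copies, so the split of reads among them is uncertain. Macrophage and monocyte markers summed to 5.36 to 55.9 TPM in the isolates and 5.02 to 12.4 TPM in the tubules, and male isolate 3 was the highest. Of 11 tested 2 were higher, the mannose receptor gene Mrc1 (3.15 ± 0.43, adjusted p = 0.00011) and the lysozyme gene Lyz2 (1.82 ± 0.54, adjusted p = 0.03); 1 was left without female tubule sample 1 or 3, female isolate 1 or 2, male tubule sample 2 or 3, or male isolate 3. Csf1r, the receptor that macrophages depend on, had 0.425 to 2.94 TPM in the isolates and 0.682 to 2.24 TPM in the tubules.

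Other leukocytes and platelets gave few calls at low levels, beside 10.4% of all genes called higher. Of 8 T cell markers 2 were higher, but 0 without female isolate 1 or male isolate 3 and 1 without female tubule sample 2 or 3, female isolate 2, or male tubule sample 1 or 2. Cd3e, a subunit of the T cell receptor, was at 0 in male isolates 1 and 2 and at 1.15 TPM in male isolate 3. Of 6 B cell markers 3 were higher, summing to at most 5.08 TPM in an isolate. Of 6 dendritic cell markers 3 were higher at a sum of at most 4.54 TPM, of 4 NK cell markers tested 1, and of 8 neutrophil markers tested 1. The NK cell call was lost without female isolate 1 or male isolate 3, and the neutrophil call without female tubule sample 1 or 3, female isolate 1, male tubule sample 1 or 3, or male isolate 3, while 2 were made without female isolate 2 or male tubule sample 2. Platelets, which carry CD31, gave 0 of 5 tested (1 without female tubule sample 2 or female isolate 2), with Pf4 at 0 in female isolate 2 and at most 3.32 TPM, in male isolate 3. Mast cell markers summed to at most 0.342 TPM. Their part in the pooled differences was not tested.

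Proximal tubule transcripts were abundant in the isolates: the early proximal tubule list had the highest sum of any marker list in 3 of them, and in female isolate 1 and male isolate 3 the thick ascending limb list exceeded it, with sums that depend on which genes are listed. Of 16 early proximal tubule markers, 0 were called in either direction in the main comparison. Over all genes 10.4% were called higher and 1.86% lower, so 0 calls of 16 do not show equal levels. The median log2 change was -0.38, and 1 of the 16 changes was positive. The mean CPM of a member in the isolates was between 52.6% (Pck1) and 93.7% (Slc22a8) of that in the tubules, with a median of 74.4%. Their sum was 6317 and 6788 TPM in the female isolates, 4833, 5267 and 3470.0 TPM in the male isolates and 4898 to 8291 TPM in the tubules. Male isolate 3, one of the 2 highest in endothelial genes, was the lowest. Cubn, the partner receptor of megalin, had 39.3 and 55.2 TPM in the female isolates and 13.9, 23.5 and 17.3 TPM in the male isolates. It had 27.5 to 40.3 TPM in the tubules, median 34.0 (-0.42 ± 0.25, adjusted p = 0.33). Pck1, an enzyme of gluconeogenesis, had 752 and 982 TPM in the female isolates and 259.6, 417 and 238 TPM in the male isolates. It had 523 to 1388 TPM in the tubules, median 773 (-0.85 ± 0.29, adjusted p = 0.059). Without male isolates 1 and 2, Slc34a1, Slc27a2, Pck1 and Fbp1 were called lower, the largest change being -1.23 ± 0.35 for Pck1. A count of 1 lower was reached without female isolate 2 or male isolate 2.

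Markers of the straight segment of the proximal tubule gave calls in both directions, beside 10.4% of all genes called higher and 1.86% lower. Of 5 late proximal tubule markers 1 was higher and 2 lower, and 2 of the 5, Slc7a13 and Atp11a, were called between male and female isolates. Slc7a13, an amino acid transporter of male straight tubule, had 4.20 and 3.49 TPM in the female isolates and 202, 248 and 112 TPM in the male isolates. It had 3.17 to 273 TPM in the tubules, median 108 (-0.90 ± 0.38, adjusted p = 0.15). Slc22a7, an organic anion transporter, had 1.46 and 1.89 TPM in the female isolates and 1.77, 5.46 and 2.74 TPM in the male isolates. It had 4.86 to 40.1 TPM in the tubules, median 12.5 and was lower, without overlap in CPM though not in TPM (-2.94 ± 0.70, adjusted p = 0.0083). Slc5a1, the glucose transporter SGLT1, was higher (0.76 ± 0.20, adjusted p = 0.016). Of these calls none was left without female isolate 1 or 2, and 1 of the 2 lower calls without female tubule sample 3, male tubule sample 3, or male isolate 1 or 3.

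The thick ascending limb was the nephron segment with the most markers called. Of its 9 markers 8 were higher and 0 lower (median 2.46), and all 9 lay above every tubule sample in CPM. They summed to 6364 and 4020.0 TPM in the female isolates, 2608, 2857 and 6798 TPM in the male isolates, and 452 to 1095 TPM in the tubules. Umod (chromosome 7, 119462711 to 119479282) had 5483 and 3452 TPM in the female isolates and 2184, 2415 and 5851 TPM in the male isolates. It had 296 to 856 TPM in the tubules, median 514. It ranked from 3 to 12 among nuclear protein-coding genes in the isolates and from 39 to 223 in the tubules (2.69 ± 0.29, adjusted p = 3.3e-05). Slc12a1, the cotransporter NKCC2 that furosemide blocks, had 490.3 and 280.2 TPM in the female isolates and 143, 158 and 497 TPM in the male isolates. It had 15.5 to 65.3 TPM in the tubules, median 28.4 (2.99 ± 0.36, adjusted p = 5.1e-05). Cldn16, a claudin of paracellular magnesium transport, had 16.4 and 9.12 TPM in the female isolates and 11.98, 11.6 and 20.9 TPM in the male isolates. It had 0.929 to 2.95 TPM in the tubules, median 1.66 (2.69 ± 0.22, adjusted p = 2.8e-06). Ptger3, a prostaglandin E2 receptor (2.60 ± 0.31), and Casr, the calcium-sensing receptor (2.45 ± 0.28), were higher too. Cldn10 was the member that did not pass, at 116 to 145 TPM in the isolates and 88.0 to 106 TPM in the tubules (0.31 ± 0.23, adjusted p = 0.44). Within females 6 of 9 and within males 7 of 9 were higher. The count was 7 without female isolate 1 and 8 without any other single library. As in the endothelial lists, female isolate 1 and male isolate 3 were the highest and male isolates 1 and 2 the lowest.

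Neighbours of that segment gave mixed counts, beside 10.4% of all genes called higher. Of 4 thin limb markers 3 were higher, with sums of 28.1 to 100 TPM against 1.76 to 25.9 TPM. Of 3 macula densa markers 2 were higher, Nos1 (2.82 ± 0.61), the neuronal nitric oxide synthase, and Pappa2 (3.01 ± 0.57), but they summed to at most 3.54 TPM. In the distal convoluted and connecting tubule 1 of 7 was higher (median 0.03), near the share over all genes. Slc12a3, the thiazide-sensitive cotransporter, had 32.7 to 64.8 TPM in the isolates and 14.4 to 62.2 TPM in the tubules. The 1 call, Trpv5 (0.92 ± 0.27), was not made without female tubule sample 2 or 3, female isolate 2, male tubule sample 2 or male isolate 3.

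Collecting duct transcripts were in both isolations, and 10.4% of all genes were called higher. Of 8 principal cell markers 4 were higher (median 1.13), with 59.8 and 114 TPM in the female isolates and 112, 129 and 161 TPM in the male isolates for Aqp2, the vasopressin-regulated water channel. Aqp2 had 4.00 to 208 TPM in the tubules, median 20.5 (1.23 ± 0.48, adjusted p = 0.1), so male tubule sample 1 exceeded every isolate. Avpr2, the vasopressin receptor, was one of the 4 (1.54 ± 0.47, adjusted p = 0.037). These calls were 0 without female tubule sample 2 or 3, female isolate 2, male tubule sample 2 or 3, or male isolate 2 or 3, 1 without male isolate 1, 2 without female isolate 1, 7 without male tubule sample 1, and 0 without male isolates 1 and 2 together. Of 11 intercalated cell markers 1 was higher, the proton pump subunit Atp6v1b1 (0.88 ± 0.25), a count near the share over all genes. That count was 0 without female tubule sample 3, female isolate 1 or 2, male tubule sample 2 or male isolate 3. Without male tubule sample 1 it was 3. Female isolate 1 was the lowest isolate for both lists and was the highest in endothelial genes. Urothelial and adrenal cortex markers gave 0 calls of 6 and 2 tested, Schwann cell 1 of 2, proliferating cell 1 of 6, and no adipocyte marker was tested. The proliferating cell call was lost without female tubule sample 2 or 3, female isolate 1 or male isolate 3, and 1 urothelial marker was called higher without female tubule sample 3 or male tubule sample 1.

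**Figure D3:**
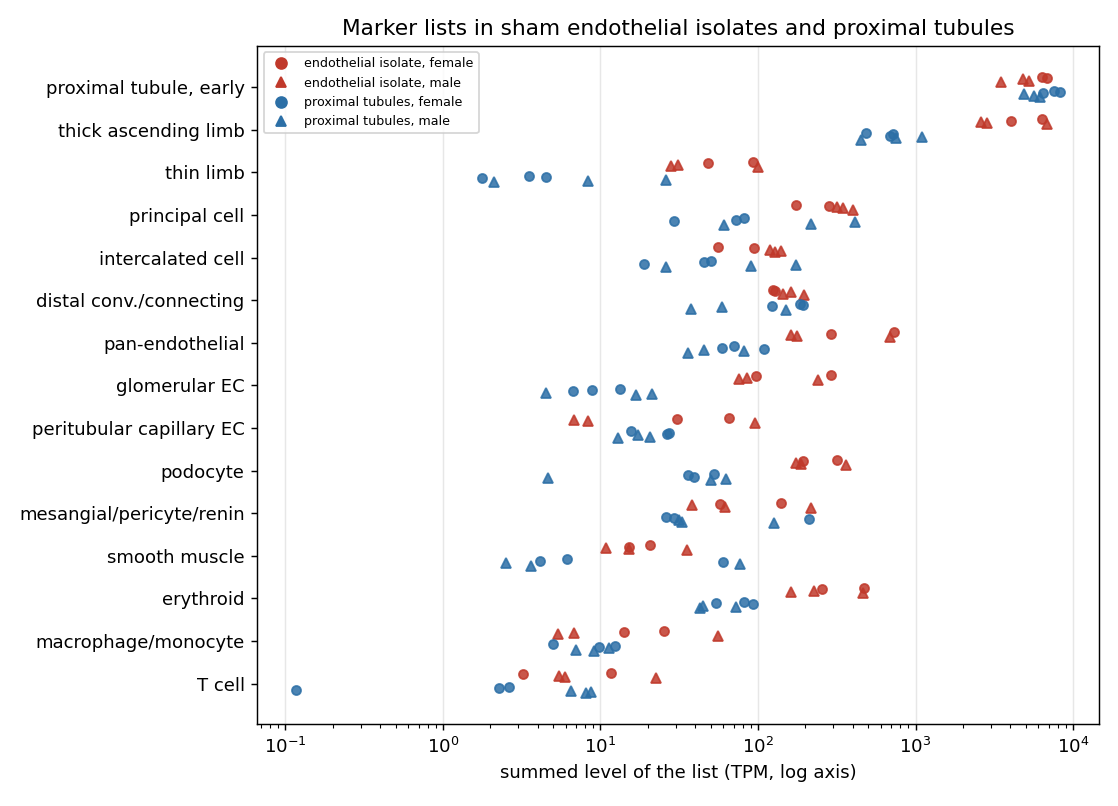
Summed level of each marker list in each sham library (horizontal log axis, TPM), isolates in red and tubules in blue, circles female and triangles male. The early proximal tubule list spans 3470.0 to 6788 TPM in the isolates beside 4898 to 8291 TPM in the tubules, whereas the thick ascending limb, pan-endothelial, glomerular endothelial and podocyte lists separate the isolations.

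**Figure D4:**
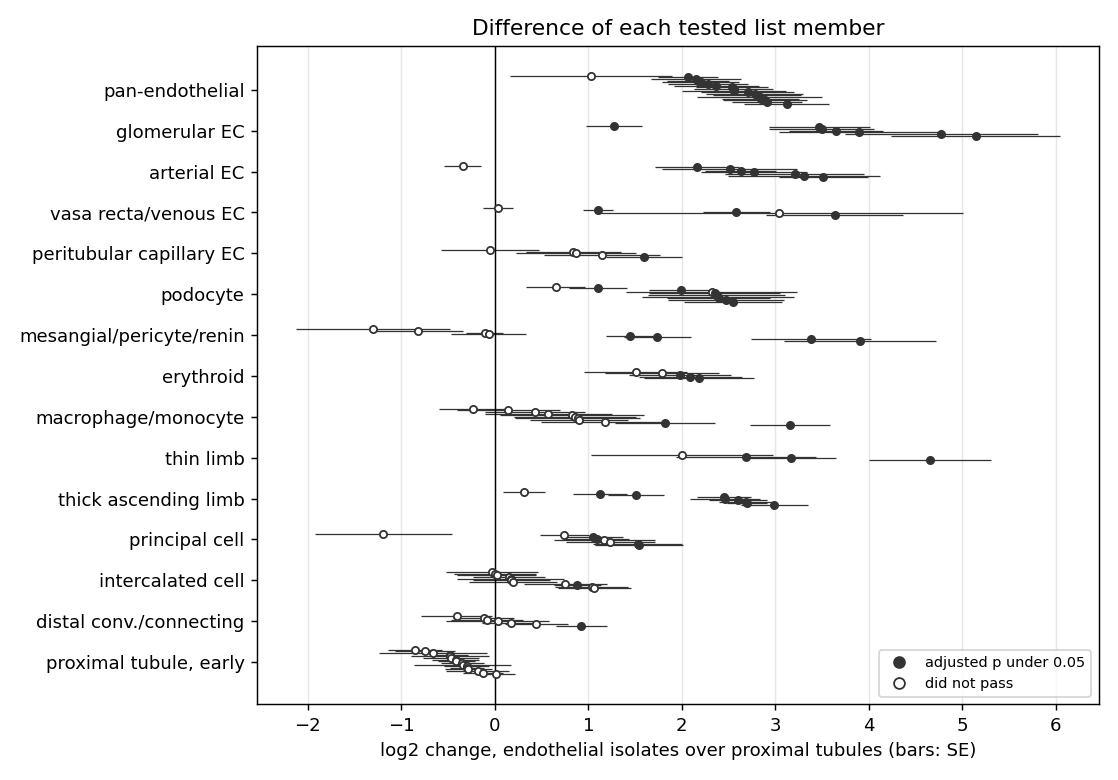
Log2 change of each tested marker between isolates and tubules (horizontal axis, bars are SE), grouped by list, filled where the adjusted p was under 0.05. The 7 glomerular endothelial and 17 of 18 pan-endothelial members are filled to the right of 0, and all 16 early proximal tubule members are open.

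The genes with the largest differences, among called protein-coding genes with at least 20 CPM and no overlap, were mostly outside the lists. Higher in the isolates were Sfrp2 (4.38 ± 1.01), a secreted Wnt modulator, Adamts5 (4.05 ± 0.82), a matrix protease, Ptn (3.92 ± 0.90), the growth factor pleiotrophin, Pi16 (3.83 ± 0.62), Pcsk6 (3.73 ± 0.54), a proprotein convertase, Egfl6 (3.50 ± 0.63) and Ptprn2 (3.48 ± 0.66), beside Itga8, Plat, Des, Sox17 and Ehd3. Sfrp2 had 53.5 and 17.5 TPM in the female isolates and 14.1, 14.3 and 50.2 TPM in the male isolates. It had 0 to 5.76 TPM in the tubules. Egfl6 had 17.9 and 13.8 TPM in the female isolates and 6.93, 5.15 and 19.8 TPM in the male isolates. It had 0.0611 to 2.82 TPM in the tubules. For both, female isolate 1 and male isolate 3 were again the highest.

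Lower in the isolates were, after Slc22a7 and Id1, G0s2 (-1.78 ± 0.31), an inhibitor of the lipase ATGL, Slc25a25 (-1.66 ± 0.43), a mitochondrial ATP-magnesium carrier, Akr1c18 (-1.63 ± 0.38), a steroid-reducing enzyme, Errfi1 (-1.45 ± 0.43), a feedback inhibitor of EGF receptor, Col27a1, Aadat, Mlxipl, the carbohydrate-response factor ChREBP (-1.09 ± 0.15), Pyroxd2, Tob1 and Zbtb43 (-0.85 ± 0.20). G0s2 had 4.23 and 4.45 TPM in the female isolates and 5.30, 4.76 and 3.91 TPM in the male isolates. It had 11.1 to 18.1 TPM in the tubules, median 12.8. The 12 genes higher changed by at least 3.48 and the 12 lower by at most 2.94 in size on the log2 scale. Each 12 were the largest of unequal pools, 384 eligible genes higher and 83 lower. These sizes therefore do not compare the 2 directions.

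By level, the leading genes of the isolates included tubule genes beside genes that most cells express. The 10 nuclear protein-coding genes with the highest mean TPM in the isolates included Kap, Fxyd2, Gpx3, Rpl13a, Umod, Cox7b, Atp5b, Eef1a1 and Fth1, and no endothelial marker was among them. Kap, the androgen-regulated kidney protein of proximal tubule, had 109 and 46.6 TPM in the female isolates and 24700.0, 24350.0 and 14520.0 TPM in the male isolates. It had 532 to 28700.0 TPM in the tubules, median 12080.5, of which the 3 female samples had 532 to 2251 TPM. Every male library of either isolation exceeded every female one. The difference between isolations, with equal weight to the sexes, was -2.50 ± 0.49 (adjusted p = 0.0018). It is an average over the sexes. Both female isolates lay below every female tubule sample, while male isolates reached 24700.0 TPM beside at most 28700.0 TPM in a tubule sample. The isolate difference of Kap was not called as different between the sexes. Gpx3, the glutathione peroxidase that proximal tubules secrete, had 6785 and 8998 TPM in the female isolates and 8714, 8148 and 4786 TPM in the male isolates and 5836 to 12550.0 TPM in the tubules, median 9838 (-0.50 ± 0.19, adjusted p = 0.1). Fxyd2, the gamma subunit of the sodium pump, had 10900.0 and 8575 TPM in the female isolates and 10220.0, 8980.0 and 8605 TPM in the male isolates and 6710.0 to 11410.0 TPM in the tubules, median 8736 (-0.08 ± 0.15, adjusted p = 0.81).

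Nephron transcription factors leaned lower in the isolates, with a median log2 change of -0.55 and 2 of 12 positive. Over all genes tested, 10.4% were called higher and 1.86% lower. Of 12 nephron transcription factors 0 were higher and 2 lower, among them the bile acid receptor gene Nr1h4 (-0.78 ± 0.19, adjusted p = 0.01); the count lower was 0 without female isolate 1, 1 without female tubule sample 2 or male isolate 3, and 4 without male isolates 1 and 2. Hnf4a had 88.0 and 93.8 TPM in the female isolates and 77.1, 89.2 and 60.3 TPM in the male isolates. It had 87.9 to 144 TPM in the tubules, median 125 (-0.75 ± 0.32, adjusted p = 0.15). Of 10 epithelial junction genes 1 was higher, near the share over all genes. It was Epcam (1.92 ± 0.34, adjusted p = 0.00095), an adhesion molecule of distal rather than proximal tubule. Epcam had 22.1 to 58.6 TPM in the isolates and 4.53 to 20.9 TPM in the tubules. Without male tubule sample 1 the count of junction genes higher was 3. Of 12 fatty acid oxidation genes Acadm was lower (-0.60 ± 0.15, adjusted p = 0.014) and 11 did not pass, and that call was lost without female isolate 1. None of 5 gluconeogenesis genes passed, though 1 was lower without female isolate 2, male tubule sample 1 or male isolate 2, and all 5 without male isolates 1 and 2. Of 7 tubular injury genes 1 was higher, Vcam1, which endothelium also makes, and 1 was called lower without female isolate 1.

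Handling-sensitive genes were checked as a set, beside 10.4% of all genes called higher. Of 13 immediate early and heat shock genes 2 were higher, Hspa1a (2.45 ± 0.41, adjusted p = 0.00059) and Hspa1b (2.75 ± 0.40, adjusted p = 0.00018), both inducible heat shock protein genes with near-identical coding sequence. Hspa1b had 182 and 44.5 TPM in the female isolates and 25.8, 28.2 and 108 TPM in the male isolates. It had 3.91 to 29.0 TPM in the tubules, median 7.08. Fos, an immediate early gene, had 312 and 144 TPM in the female isolates and 69.2, 78.7 and 265 TPM in the male isolates and 81.2 to 330.2 TPM in the tubules, median 229 (-0.72 ± 0.36, adjusted p = 0.23). Female isolate 1 and male isolate 3 were the highest isolates for these genes as for the endothelial lists, and male tubule samples 1 and 2 were the highest tubule samples. The part of handling in the endothelial differences was not tested.

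The isolates varied among themselves, and several lists shared an order that others did not. Against the tubule median, the summed pan-endothelial level was 11.4 times in female isolate 1, 10.7 times in male isolate 3, 4.51 times in female isolate 2, and 2.52 and 2.75 times in male isolates 1 and 2. Glomerular endothelial genes were at 26.3, 21.9, 8.82, 7.72 and 6.84 times in the same order of isolates, and thick ascending limb genes at 9.08, 9.69, 5.73, 3.72 and 4.07 times. Peritubular capillary genes were at 3.49, 5.07 and 1.61 times in the first 3 and at 0.360 and 0.442 times in male isolates 1 and 2. Macrophage and monocyte genes were likewise below the tubule median in those 2, at 0.718 and 0.569 times. The collecting duct lists had another order, with principal cell genes at 2.25 times in female isolate 1 and 3.64 to 5.22 times in the other 4, and intercalated cell genes at 1.16 and 1.97 to 2.92 times. Early proximal tubule genes were at 0.551 times in male isolate 3 and 0.767 to 1.08 times in the other 4.

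**Figure D5:**
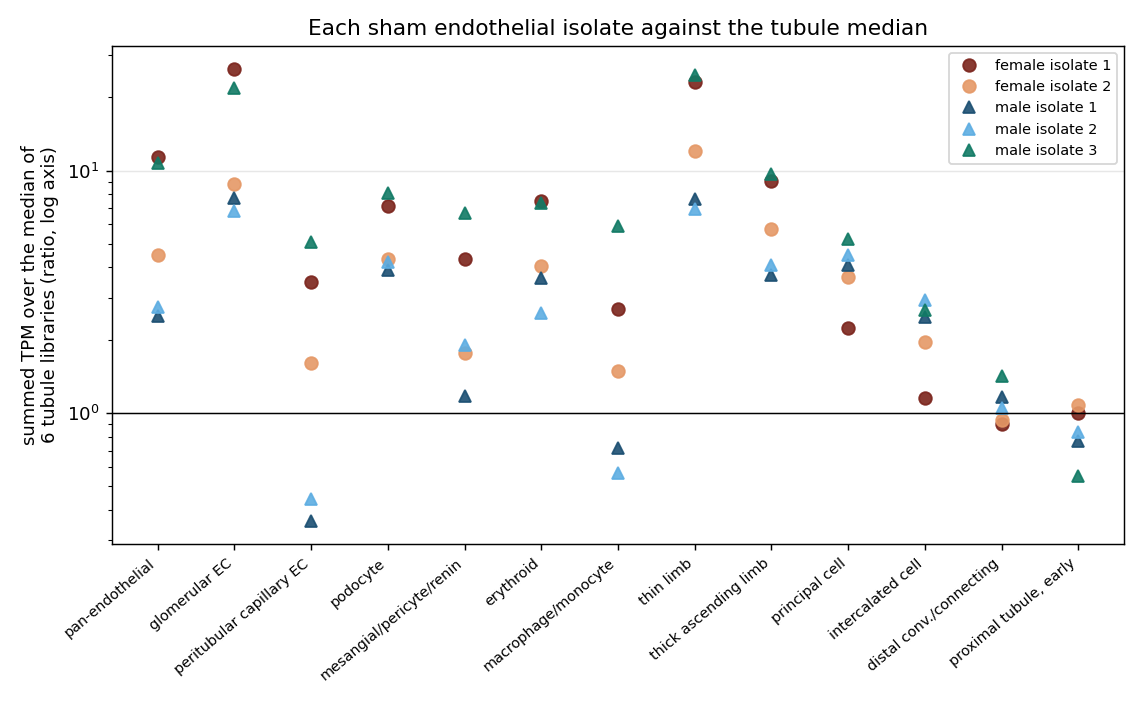
Summed TPM of each marker list in each of the 5 sham endothelial isolates as a ratio to the median of the 6 tubule samples (vertical log axis, line at 1), circles female and triangles male. Female isolate 1 and male isolate 3 are the highest in the endothelial, podocyte and thick ascending limb lists, and male isolates 1 and 2 lie below 1 for peritubular capillary genes.

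The comparison was also made within each sex. In females, with 2 isolates, 1302 genes (6.14%) were higher and 101 (0.476%) lower, and in males, with 3 isolates, 497 (2.34%) and 73 (0.344%). Of the pan-endothelial markers 15 were higher in females and 8 in males, with medians of 2.86 and 2.27, and of the glomerular endothelial markers 7 and 3, with medians of 4.53 and 3.15. Early proximal tubule markers gave 0 calls in either sex, with medians of -0.37 and -0.45. The male count of 570 calls was 106 without male isolate 3, 162 and 187 without male tubule samples 3 and 2, and 372 without male tubule sample 1, and the female count of 1403 was 162 without female isolate 1, and 666, 904 and 788 without female tubule samples 1, 2 and 3. A call in 1 sex and not in the other is no difference between them.

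The difference between the sexes was tested directly. The isolate difference itself differed between males and females in 0 genes upward (0%) and 2 downward (0.00943%), with 1610 genes at an unadjusted p under 0.05 and 105 called by DESeq2. Chst11, a chondroitin sulfotransferase, had 2.54 and 1.76 TPM in the female isolates and 8.50, 11.3 and 8.99 TPM in the male isolates. It had 0.375 to 0.774 TPM in the female tubules and 12.5 to 14.3 TPM in the male tubules. The isolates lay above the tubules in females and below them in males, and the male difference minus the female one was -2.50 ± 0.34 (adjusted p = 0.0130). Gvin1, an interferon-inducible GTPase of a family of close copies, had 1.54 and 0.782 TPM in the female isolates and 0.523, 1.41 and 2.81 TPM in the male isolates, 0 TPM in all 3 female tubule samples and 0.192 to 1.09 TPM in the male tubules. Its fitted difference (-11.87 ± 1.63, adjusted p = 0.0135) depends on the prior count and is no bound. The count of 2 was 0 without female tubule sample 3 or female isolate 1, 1 without female tubule sample 1 or male isolate 2, and 12 without male tubule sample 3.

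Between male and female isolates, 168 genes (0.792%) were higher and 81 (0.382%) lower in males. The 6 with the smallest p held no member of the endothelial lists. Ugt2b38, a glucuronosyltransferase, had 41.4 and 43.1 TPM in the female isolates and 723, 939 and 429 TPM in the male isolates. It had 51.0 to 80.2 TPM in the female and 658 to 795 TPM in the male tubules (male minus female in isolates 4.17 ± 0.39, adjusted p = 1.3e-05). Dio1, the deiodinase that activates thyroid hormone, had 38.7 and 35.5 TPM in the female isolates and 2.57, 2.71 and 3.80 TPM in the male isolates. It had 37.9 to 50.1 TPM in the female and 1.91 to 3.48 TPM in the male tubules (-3.37 ± 0.33, adjusted p = 1.9e-05). Degs2 (3.40 ± 0.27) and Sdc2 (2.11 ± 0.21) were higher in males, and Bhmt (-4.30 ± 0.44), betaine-homocysteine methyltransferase, was lower. Ugt1a2, also called lower in males, had 874 and 771 TPM in the female isolates and 0.539, 0.535 and 0.272 TPM in the male isolates. The Ugt genes have close paralogs, so their read shares are uncertain. None of the 18 pan-endothelial markers was called. The count of 249 was 647 without male isolate 3, 136 and 137 without male isolates 2 and 1, and 98 and 77 without female isolates 1 and 2. In the authors' deposited table of this sex comparison 269 genes were higher and 153 lower in males, and of these 422 genes 208 were called here, 0 of them in the opposite direction.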

How the data were processed

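Poly-A RNA libraries of 20 ng total RNA were sequenced on an Illumina NextSeq instrument, per the labels. The authors quantified reads with Salmon 0.13.1 on GRCm38, per the submitters' processing notes, and deposited per transcript the estimated counts (expected counts, not normalized), the TPM and the effective length. Their deposited comparison table gives a log2 fold change and an adjusted p-value, which the submitters' processing notes credit to DESeq2. All further steps were made here.

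For each gene the transcripts' estimated counts were added and then rounded, and their TPM added; 53355 of 53392 genes were found in GENCODE M21. Male tubule sample 3 was sequenced as 2 libraries, which were added. Their counts differed beyond sampling noise (chi-square over its degrees of freedom, 256). All 23 samples were fitted with edgeR 4.0.16 in R 4.3.3 as 8 group means (TMM normalization, filterByExpr with a minimum count of 10 and total of 15, quasi-likelihood F-test, Benjamini-Hochberg over all 21206 genes), which gave 15 residual degrees of freedom. The fit was tested on simulated data first. A gene with 0 counts over an isolation lies below 0.0131 CPM in isolates and 0.0135 CPM in tubules (3 counts over the group, counting error only). PCR reads have no molecular identifiers.

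The members, the 46 gene lists (32 of cell types, 14 of pathways) and the tests were chosen with earlier results of these data known. Named genes are the 5 markers, the first 3 and up to 4 highest-TPM members per list, the 12 largest changes per direction (at least 20 CPM, no overlap), the 10 highest genes by TPM and up to 6 with the smallest p per sex comparison. Alternatives were the Wald test of DESeq2 1.42.0, RLE normalization, effective length offsets, testing without the low-count filter, only sham samples, a replicate block, either library of male tubule sample 3 alone, and leaving out each sample. Some named members are not reported here. Strand of the counting is not given in the sources used here. Title numbers are shared between isolations, with the same sex and treatment in both, but whether they mark 1 mouse is not given. Same-numbered samples did not deviate together, which with so few samples per group cannot decide the pairing.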

Additional observations from a re-analysis of the deposited data

Results flagged for a closer look

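A pair of tubule samples stood far from the others of their isolation, and chance flags about 1 in 20 of the 40 sets of values examined. Thin limb markers summed to 25.9 TPM in male tubule sample 1, against 1.76 to 8.335 TPM in the other 5. That sample also had the highest summed principal cell level, 413.6 TPM, and the lowest podocyte level, 4.66 TPM. In male tubule sample 3, 86.8% of reads lay in protein-coding genes, and 8.53% of its reads lay in 1 gene.

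In 2 genes the isolate difference itself differed between the sexes. It was -2.50 (log2, male minus female) for Chst11 and -11.87 for Gvin1, whose size is no bound, since Gvin1 had 0 TPM in all 3 female tubule samples.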

How the results depend on the processing

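The main counts of 2208 higher and 395 lower became 2679 and 853 with DESeq2, 1700 and 236 with length offsets, 2197 and 237 without the low-count filter, and 2422 and 1238 without male isolates 1 and 2, chosen after seeing the data; RLE normalization gave 2164 and 449. With only the sham samples in the fit the counts were 1805 and 420, with 7 residual degrees of freedom. Leaving out 1 library gave 1230 to 2253 higher and 158 to 452 lower. Of the 2603 genes called, 0 were called in the opposite direction in any alternative. Within females, 1403 calls became 2263 with DESeq2, 857 with length offsets and 162 to 1746 without 1 library. Within males, 570 became 1640, 313 and 106 to 765, and 1497 without male isolates 1 and 2. The sex difference in the isolate difference, 2 genes, became 105 with DESeq2, 7 without the filter, 0 with only sham samples, 4 without male isolates 1 and 2, and 0 to 12 without 1 library. Male against female isolates, 249 calls, became 546 with DESeq2, 64 without male isolates 1 and 2, and 77 to 647 without 1 library. Peritubular genes turned without 1 library: Plvap ranged from -0.26 to 1.08, Igfbp3 from -0.39 to 1.13 and Esm1 from -1.44 to 0.22, and Esm1 was 0.59 without male isolates 1 and 2. The cause of these shifts was not tested.

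A replicate block by title number gave 1536 genes higher and 256 lower, with 497 calls in females and 284 in males. Each number shared between the isolations had the same sex and treatment in both. Deviations of same-numbered samples correlated at -0.0372 to 0.0222 over 5 numbers, none best with its own. Deviations from means of so few samples cannot decide whether a number marks a single mouse. Isolates number 5 and tubules 6, and the limit of 3 counts bounds what absence means for scarce cell types.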

Other observations

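MHC class II genes, which present antigen on leukocytes, were not called between the isolations. Of their 5 members 0 passed, beside 12.3% of all genes called in either direction. Between male and female isolates 2 of the 5, Cd74 and H2-Ab1, were called, both higher in males. Cd74, the invariant chain, had 31.9 and 16.9 TPM in the female isolates and 109, 253 and 145 TPM in the male isolates. It had 10.1 to 21.9 TPM in the female tubules and 89.2 to 168 TPM in the male tubules. The summed list was 33.1 to 59.1 TPM in the female and 184 to 418 TPM in the male isolates, and 22.97 to 43.7 TPM in the female and 151 to 278 TPM in the male tubules. No test between the sexes was made for the tubules.

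Stress-response genes also varied within the tubules. Atf3, a transcription factor induced by stress, had 322 and 269.5 TPM in male tubule samples 1 and 2 and 4.73 to 19.2 TPM in the other 4, beside 97.5 and 38.0 TPM in the female isolates and 13.1, 17.8 and 78.2 TPM in the male isolates. Spp1, encoding osteopontin, had 449 to 626 TPM in the female and 79.9 to 129.9 TPM in the male tubules, and 549 and 588 TPM in the female isolates and 259, 253 and 386 TPM in the male isolates.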
